A study of Mus musculus with 6 samples.

Results

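Splicing regulators and heterogeneous nuclear ribonucleoproteins (hnRNPs) are the RNA-binding proteins that decide which exons of a pre-mRNA are joined. Members were taken by symbol: the SR proteins (Srsf and Tra2), the Hnrnp, Sf3a, Sf3b, U2af, Rbfox, Mbnl, Celf, Esrp, Ptbp, Khdrbs and Nova genes, Qk, and the Rbm genes with a number, leaving out symbols marked as pseudogenes. This gave 107 genes among the 35688 rows of the table. Poly(A)-selected RNA had been sequenced from m1102, a mouse line whose labelled cell type is ovarian surface epithelium, the layer that covers the ovary. In the first group, 3 libraries came from cells given 10 ng/mL TGFB1 for 4 days. In the second, 3 libraries came from untreated cells of the same line, and both groups were grown in medium with serum, insulin supplement and EGF. The labels name no genetic change in either group. Each group is a single line in culture, and the labels do not say whether replicates were separately treated cultures.

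SR proteins mostly bind exonic enhancers and favour inclusion of an exon, while many hnRNPs bind silencers and oppose it. The Sf3a and Sf3b subunits and the U2af proteins recognise the branch point and the 3' splice site in nearly every intron. Another kind, among them Esrp, Rbfox, Mbnl, Celf, Qk, Ptbp and Rbm47, is restricted to some tissues or known for setting exon choice during epithelial-mesenchymal transition (EMT), a programme that TGFB1 is known to induce. Transcript abundance of a regulator says nothing by itself on its protein, its phosphorylation or on exon choice, none of which was measured here.

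The 3 muscleblind genes, Mbnl1, Mbnl2 and Mbnl3, were all lower with TGFB1, and the 250 bases before a RefSeq start of each are shown because they are the one paralog family in which every gene was called. Coordinates are those of GRCm38.p6, each sequence runs 5' to 3' on the strand of the gene, and capitals mark matches to the motifs searched. They lie at chr3:60472580-60472829 (plus strand) for Mbnl1, chr14:120275419-120275668 (plus strand) for Mbnl2 and chrX:51205991-51206240 (minus strand) for Mbnl3.
Mbnl1: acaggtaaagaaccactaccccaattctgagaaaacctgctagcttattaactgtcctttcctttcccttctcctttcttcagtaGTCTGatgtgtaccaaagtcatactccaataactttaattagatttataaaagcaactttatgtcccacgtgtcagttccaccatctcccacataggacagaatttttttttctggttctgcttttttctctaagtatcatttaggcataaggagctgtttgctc
Mbnl2: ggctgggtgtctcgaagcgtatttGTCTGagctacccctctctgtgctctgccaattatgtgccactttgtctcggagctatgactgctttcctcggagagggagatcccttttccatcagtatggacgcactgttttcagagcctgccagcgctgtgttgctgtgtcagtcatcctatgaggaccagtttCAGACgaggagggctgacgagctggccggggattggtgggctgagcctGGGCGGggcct
Mbnl3: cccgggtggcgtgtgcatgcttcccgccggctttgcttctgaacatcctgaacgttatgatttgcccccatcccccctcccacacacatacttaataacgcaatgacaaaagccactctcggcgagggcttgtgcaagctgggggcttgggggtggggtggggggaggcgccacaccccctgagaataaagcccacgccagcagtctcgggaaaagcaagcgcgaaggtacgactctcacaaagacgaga
The Mbnl1 window is that of its most upstream start, and a second window for this gene overlaps exons and is not shown. The motifs were CACCTG (an E-box form bound by the Snail and ZEB repressors), CAGAC (a SMAD-type element) and GGGCGG (a GC box), searched on both strands. None overlaps another in the windows shown. Mbnl1 held 1 CAGAC match, which began at position -165 from the start. Mbnl2 held CAGAC matches at -226 and -59 and a GGGCGG match at -11, and Mbnl3 held no match. The second Mbnl1 window, not shown, held 4 GGGCGG matches, at -216, -55, -51 and -47, of which the last 3 run into one another, and no other match. Of all 32817 promoter windows in the RefSeq table, 17.2% held CACCTG, 42.2% CAGAC and 32.7% GGGCGG. Among 122 windows of the 86 members found in that table, the shares were 11.5%, 36.1% and 56.6% in the same order. Among 23 windows of the 13 members that were lower with TGFB1, they were 4.35%, 52.2% and 47.8%. The full set of windows covers 26994 genes, more than the 12257 tested here, and the sets were not matched for abundance. Repeated windows were dropped from the full set only. A match is a string of letters and not a measured binding site.

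Per library, 17758 to 19288 genes were above 0. Values are abundances on a transcripts-per-million (TPM) scale as deposited, without read counts, so depth is unknown. Of 6 tested genes known to respond to TGFB1, 5 rose and Smad7 did not pass (38.4 to 47.4 TPM with TGFB1, 31.7 to 39.6 TPM untreated, limma adjusted p 0.0949). Col1a1, a chain of fibrillar collagen, had 218, 139 and 126 TPM with TGFB1 and 6.16, 6.90 and 7.15 TPM in untreated cells. Along the leading principal component (70.7% of the variance) TGFB1 replicate 1 lay at 46.6, TGFB1 replicates 2 and 3 at 20.2 and 18.1, and the untreated libraries between -29.8 and -27.1. Mitochondrial transcripts made up 7.86 to 8.61% of the TGFB1 libraries and 6.59 to 7.15% of the untreated ones. Of 11 ovarian surface epithelium markers 9 were tested, 1 was called higher (Cdh2) and 4 lower, among them Krt7 (113 to 174 TPM with TGFB1, 294 to 371 TPM untreated). The mesothelial transcription factor gene Wt1 had 103 to 164 TPM with TGFB1 and 172 to 194 TPM untreated, while Krt19 and Lhx9 were at or below 2.01 TPM in every library. Immune markers were at or below 0.645 TPM apart from Cd68, which was lower with TGFB1 (7.16 to 9.73 TPM, against 18.1 to 25.9 TPM untreated), and the defining endothelial markers were at or below 1.6 TPM. Of 4 theca markers only Star exceeded 1 TPM (78.9 to 182 TPM with TGFB1, 279 to 326 TPM untreated), and of 5 granulosa markers only Foxl2 (22.3 to 23.3 TPM with TGFB1, 17.4 to 19.6 TPM untreated) and Inha (7.25 to 11.5 TPM with TGFB1, 15.99 to 18.05 TPM untreated) were above that value. Of 5 smooth muscle markers 3 were tested and 1 rose, Cnn1, with 3.89 to 9.66 TPM after TGFB1 and 0.70 to 2.08 TPM untreated (log2 fold change 1.56, limma adjusted p 0.0182), a call lost without untreated replicate 1 or 2. Des had 1.11 to 3.15 TPM with TGFB1 and 0.72 to 0.93 TPM untreated (adjusted p 0.0693), and Myh11 and Myocd were at or below 0.034 TPM. Whether these shifts have a part in the results that follow was not tested. In bulk RNA, fewer cells of a type and less RNA per cell cannot be told apart.

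Splicing regulators changed little in size. They were called lower as often as all tested genes and called higher less often. Of the 107 genes, 89 averaged 1 TPM or more across all 6 libraries and were tested, from Mbnl3 at 5.46 TPM to Hnrnpa2b1 at 963 TPM. A gene was called at a limma adjusted p under 0.05, with adjustment over all 12257 tested genes. By this rule 1 member was higher and 13 were lower with TGFB1, which is 15.7% of those tested, against 30.4% of all tested genes. The share called lower was 14.6% among members and 14.6% among all genes, and the share called higher was 1.12% among members and 15.8% among all genes. Leaving out untreated replicate 3 gave 0 higher and 7 lower (0 and 7.87%), against 9.08 and 7.48% of all tested genes in that fit. Rescaling each library without mitochondrial and the most abundant genes gave 7 higher and 10 lower (7.87 and 11.2%). The shares of all tested genes were then 19.1% higher and 11.4% lower. Quantile normalization gave 3 higher and 12 lower (3.37 and 13.5%), against 14.6 and 14.7% of all tested genes. The median log2 fold change was -0.01 over the tested members and 0.02 over all tested genes. No member reached a log2 fold change of 1 in either direction, which 5.76% of all tested genes did, and 80.9% of members lay within 0.25 of 0, against 56.9% of all tested genes. The genes compared were not matched for abundance, with a median of 72.4 TPM in members and 23.0 TPM in all tested genes. Nor were they matched for spread. The median SD among TGFB1 libraries was 5.24% of the mean in members and 9.16% in all tested genes. The TGFB1 and untreated values did not overlap in 38 of 89 members (42.7%), against 49.8% of all tested genes.

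**Figure D1:**
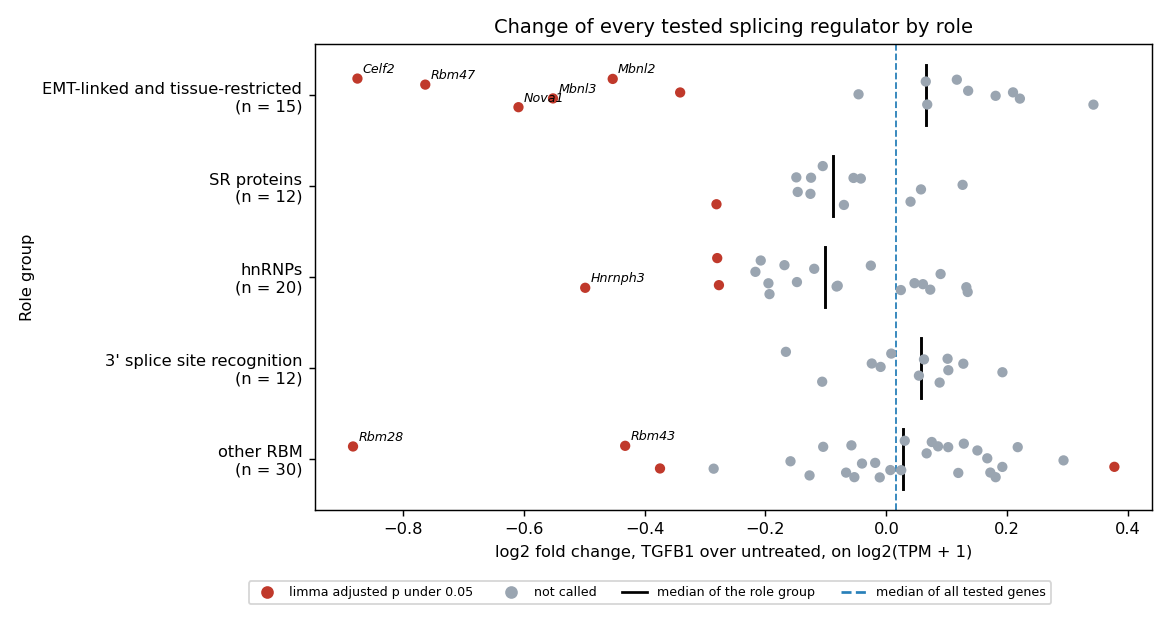
Log2 fold change (TGFB1 over untreated, on log2(TPM + 1), horizontal axis) of the 89 tested splicing regulators, 1 point a gene, in rows by role; red points passed limma's adjusted p of 0.05, black bars are medians of the row and the dashed line is the median of all tested genes at 0.02. Most points lie within 0.25 of 0, and the points farthest to the left are Rbm28, Celf2 and Rbm47.

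Of the role groups, the EMT-linked and tissue-restricted regulators held the largest share of calls in the main test. Of 27 genes, 15 were tested, and 6 of these (40%) fell with TGFB1 while 0 rose. Of all tested genes 14.6% were called lower, 15.8% higher and 30.4% in either direction. The 6 genes were Celf2, Rbm47, Nova1, Mbnl3, Mbnl2 and Mbnl1. The count fell to 3 when TGFB1 replicate 3, untreated replicate 1 or untreated replicate 3 was left out. In each of those fits 20% of the tested genes of this group were called. Of all tested genes 11.4, 9.22 and 7.48% were then called lower, and 23.1, 18.9 and 16.6% in either direction. With no intensity trend 4 genes of the group fell and 0 rose (26.7%). In that fit 13% of all tested genes were called lower and 28.1% in either direction. Quantile normalization gave 2 higher and 6 lower in this group (53.3% called), against 29.3% of all tested genes called. Rescaling gave 2 higher and 4 lower (40% called), against 30.5% of all tested genes. The 12 untested genes had means under 0.66 TPM, among them Esrp1, an epithelial splicing regulator that was listed at 0 in 5 of 6 libraries, and Rbfox3 and Rbm24, which were listed at 0 in all.

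Celf2, a binder of UG-rich RNA located on chromosome 2 (6539694 to 7509563, minus strand, in GENCODE M21 on GRCm38), had the lowest log2 fold change of this group in the test on all 6 libraries. It had 6.21, 8.03 and 7.93 TPM with TGFB1 and 15.7, 13.8 and 13.5 TPM in untreated cells. The groups did not overlap, and TGFB1 replicate 1 was the lowest of the 6. The log2 fold change was -0.88 (SE 0.12, limma adjusted p 0.00275), and the call held under every alternative setting tried. Its paralog Celf1 had 32.9, 33.6 and 33.2 TPM with TGFB1, against 35.3, 34.3 and 33.5 TPM untreated, with a log2 fold change of -0.05 and a 95% confidence interval of -0.18 to 0.09 (limma adjusted p 0.574). The sum of Celf1 and Celf2 was 40.6 ± 1.35 TPM with TGFB1 and 48.7 ± 2.04 TPM untreated (mean ± SD, n = 3 each, here and below). Celf2 made up 18.2 ± 1.96% of that sum with TGFB1 and 29.4 ± 1.13% untreated. The remaining Celf genes, Celf3 to Celf6, had means of 0.66 TPM or less.

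The muscleblind proteins bind YGCY motifs and are known for promoting adult, differentiated splicing patterns. Mbnl2 had 84.8, 92.6 and 90.3 TPM with TGFB1 and 117, 125 and 126 TPM untreated. Mbnl1 had 46.3, 41.3 and 38.8 TPM with TGFB1 and 53.6, 52.8 and 54.1 TPM untreated. Mbnl3 had 4.57, 3.93 and 4.23 TPM with TGFB1, against 6.27, 6.51 and 7.27 TPM untreated. In all 3 genes every TGFB1 library lay below every untreated one. The log2 fold changes were -0.45 for Mbnl2 (SE 0.06, limma adjusted p 0.00317), -0.34 for Mbnl1 (SE 0.08, adjusted p 0.0173) and -0.55 for Mbnl3 (SE 0.10, adjusted p 0.00847). The Mbnl1 call was lost without TGFB1 replicate 2 or 3 and without untreated replicate 1 or 3, with an adjusted p of up to 0.067, while its log2 fold change stayed between -0.41 and -0.29. The summed abundance of the 3 genes was 136 ± 2.21 TPM with TGFB1 and 183 ± 5.60 TPM untreated, a difference of -25.8%. Within the family Mbnl2 held 65.8 ± 2.87% of the sum with TGFB1 and 67.0 ± 0.90% untreated, and the groups overlapped. Mbnl3 held 3.13 ± 0.26% with TGFB1 and 3.66 ± 0.20% untreated, without overlap between the groups.

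**Figure D2:**
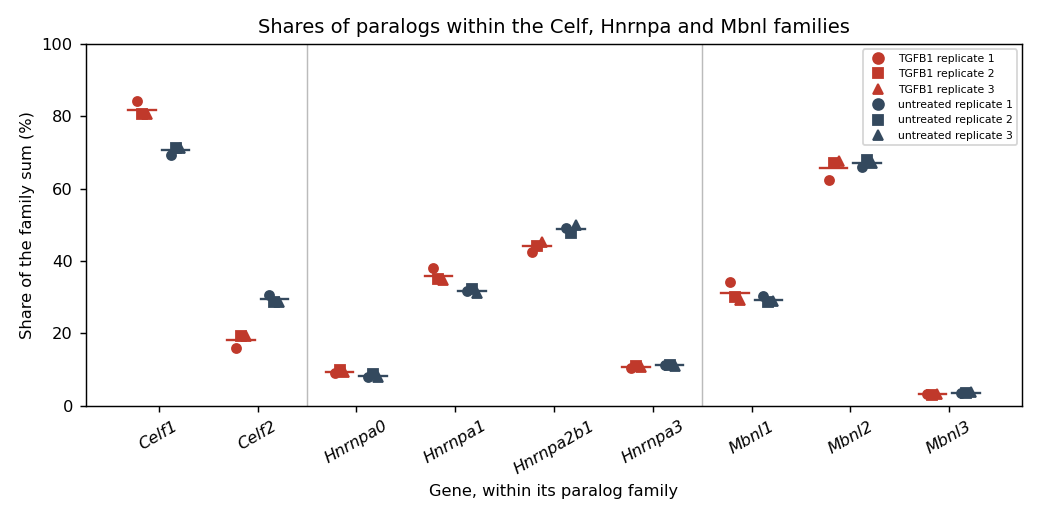
Share of each gene in the sum of its paralogs (percent, vertical axis) in each library, for the Celf, Hnrnpa and Mbnl families, with TGFB1 libraries in red left of untreated libraries in dark grey and bars at the group means. Celf2 sits at 15.9 to 19.3% with TGFB1 and 28.8 to 30.7% untreated, while the shares of Mbnl1 and Mbnl2 overlap between the groups.

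Rbm47, known for supporting epithelial splicing and transcript stability, and Nova1, a regulator best known in neurons, fell with a wider spread. Rbm47 had 6.68, 13.5 and 11.9 TPM with TGFB1 and 17.6, 19.6 and 17.3 TPM untreated. Nova1 had 5.22, 9.18 and 7.98 TPM with TGFB1 and 10.3, 12.96 and 11.7 TPM untreated. In both genes the groups did not overlap and TGFB1 replicate 1 was the lowest library. The log2 fold change of Rbm47 was -0.76 (SE 0.23, limma adjusted p 0.044) and that of Nova1 -0.61 (SE 0.19, adjusted p 0.0495). Without TGFB1 replicate 1 they were -0.49 and -0.40, with adjusted p of 0.00861 and 0.0395. Both calls were lost without TGFB1 replicate 3 and without any 1 of the untreated libraries, with an adjusted p of up to 0.125 for Rbm47 and 0.143 for Nova1. Both were also lost with no filter on low values, no intensity trend or rescaling. The Nova1 call was also lost with a pseudocount of 0.1 and with robust eBayes.

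The remaining 9 tested genes of this group did not pass, and their group means differed by under 25% in all but Esrp2. Rbfox2, known for switching exons to their mesenchymal form, had 64.9, 65.5 and 65.4 TPM with TGFB1 and 55.4, 60.4 and 52.0 TPM untreated. Its groups did not overlap, and its log2 fold change of 0.22 (95% confidence interval 0.06 to 0.38) had a limma adjusted p of 0.0501. The adjusted p passed 0.05 in 6 alternative settings, among them a pseudocount of 5 and quantile normalization. Esrp2, an epithelial regulator, had 21.5, 14.2 and 16.2 TPM with TGFB1 and 14.8, 13.8 and 11.3 TPM untreated. These groups overlapped, with a log2 fold change of 0.34 (95% confidence interval -0.05 to 0.73, limma adjusted p 0.158). Ptbp3, a polypyrimidine tract binder, had 50.7 ± 2.22 TPM with TGFB1 and 43.7 ± 2.36 TPM untreated (log2 fold change 0.21, adjusted p 0.0556). Qk, known for promoting circular RNAs in EMT, had 63.5 ± 3.22 TPM with TGFB1 and 60.6 ± 3.74 TPM untreated (log2 fold change 0.07, adjusted p 0.52). Ptbp1 had 323 ± 25.2 TPM with TGFB1 and 308 ± 16.1 TPM untreated, and 27.5% of its 31-base sequences also occur in other genes, so its value is uncertain. Ptbp2 (log2 fold change 0.14), Rbm38 (0.18) and Khdrbs1 (0.12) had adjusted p of 0.419, 0.224 and 0.169 by limma.

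**Figure D3:**
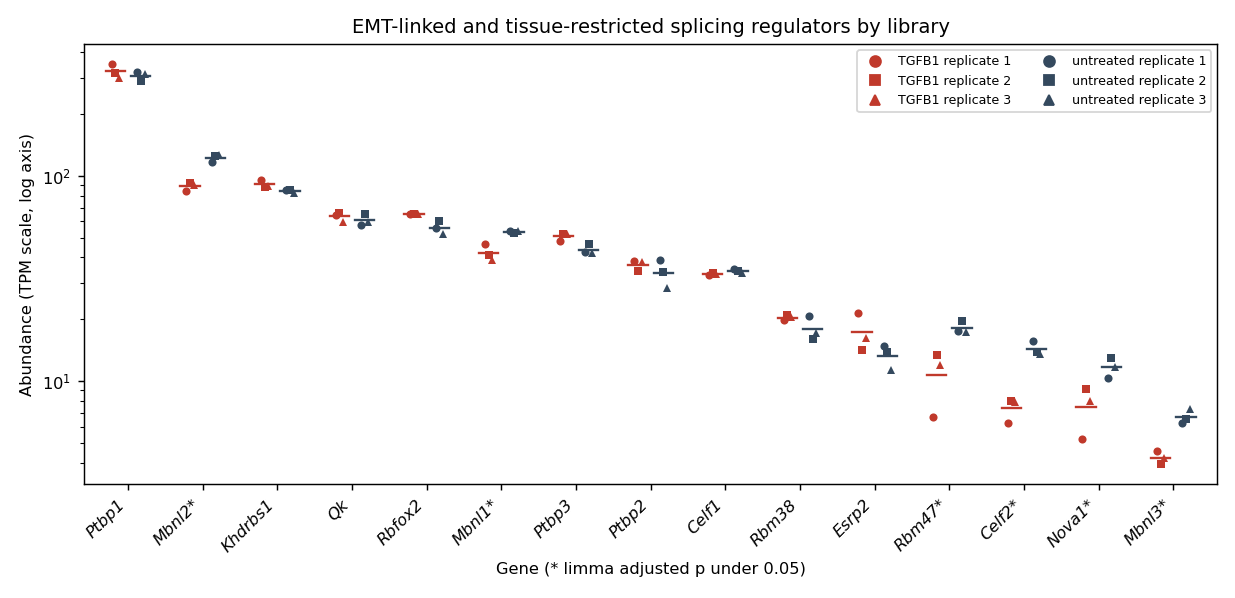
Abundance (TPM scale, log axis) of the 15 tested EMT-linked and tissue-restricted regulators in each library, ordered by mean, with TGFB1 libraries in red left of untreated libraries in dark grey, a marker shape for each replicate number and bars at the group means. The 6 genes with an asterisk passed limma's adjusted p of 0.05, and in each the red points lie below the dark grey ones.

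Among SR proteins, 1 of 12 tested genes fell (8.33%) and 0 rose, against 14.6% of all tested genes lower and 15.8% higher. Srsf12 was not tested. Srsf5 had 270, 296 and 309 TPM with TGFB1 and 373, 357 and 334 TPM untreated. The groups did not overlap, and the log2 fold change was -0.28 (SE 0.07, limma adjusted p 0.0268). This call was lost in 7 alternative settings, among them quantile normalization and leaving out TGFB1 replicate 2 or untreated replicate 1 or 2. Srsf3, which controls its own splicing, had 217 ± 5.39 TPM with TGFB1 and 237 ± 15.4 TPM untreated (log2 fold change -0.12, adjusted p 0.183). Srsf2 had 216 ± 11.3 TPM with TGFB1 and 233 ± 26.7 TPM untreated, with 23.1% of its 31-base sequences shared with other genes. Summed over the 13 SR genes, abundance was 1594 ± 8.56 TPM with TGFB1 and 1705 ± 91.8 TPM untreated, with the highest value, 1811 TPM, in untreated replicate 1.

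Among hnRNPs, all 20 genes were tested and 3 fell (15%), while 0 rose, against 14.6% of all tested genes lower and 15.8% higher. The count of lower calls was 6 without TGFB1 replicate 1, 1 without untreated replicate 3 and 7 under median-of-ratios scaling. These were 30, 5 and 35% of the hnRNPs, against 15.7, 7.48 and 15.9% of all tested genes called lower in the same fits. Hnrnph3, which binds G-rich runs, had 29.2, 31.01 and 30.9 TPM with TGFB1 and 48.1, 39.1 and 43.2 TPM untreated. Its groups did not overlap, the log2 fold change was -0.50 (SE 0.09, limma adjusted p 0.00712), and the call held under every alternative setting tried. Its paralog Hnrnph2 had 106, 111 and 116 TPM with TGFB1 and 139, 130 and 136 TPM untreated (log2 fold change -0.28, SE 0.06, adjusted p 0.014). Of the 31-base sequences of Hnrnph2, 21.98% occur in other genes, so its value is uncertain, and its call was lost without untreated replicate 3.

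Hnrnpa2b1, the most abundant member, had 882, 871 and 854 TPM with TGFB1 and 1128, 989 and 1052 TPM untreated. All TGFB1 libraries lay below all untreated ones, with a log2 fold change of -0.28 (SE 0.06, limma adjusted p 0.0158). This call was lost under quantile normalization and without TGFB1 replicate 2 or 3 or untreated replicate 3. Hnrnpa1, which like Hnrnpa2b1 binds UAG-containing silencers, had 786, 687 and 654 TPM with TGFB1 and 729, 668 and 658 TPM untreated. These overlapped, with a log2 fold change of 0.05 (95% confidence interval -0.15 to 0.24, adjusted p 0.698). Without TGFB1 replicate 1 the sign turned to -0.03, and 29.9% of its 31-base sequences are shared with other genes. Within the sum of Hnrnpa0, Hnrnpa1, Hnrnpa2b1 and Hnrnpa3, Hnrnpa2b1 held 44.1 ± 1.34% with TGFB1 and 48.9 ± 1.08% untreated, and Hnrnpa1 35.9 ± 1.83% with TGFB1 and 31.7 ± 0.54% untreated. Hnrnpab had 793 ± 60.7 TPM with TGFB1 and 722 ± 53.3 TPM untreated (log2 fold change 0.13, adjusted p 0.244), with 28.1% of its sequence shared.

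**Figure D4:**
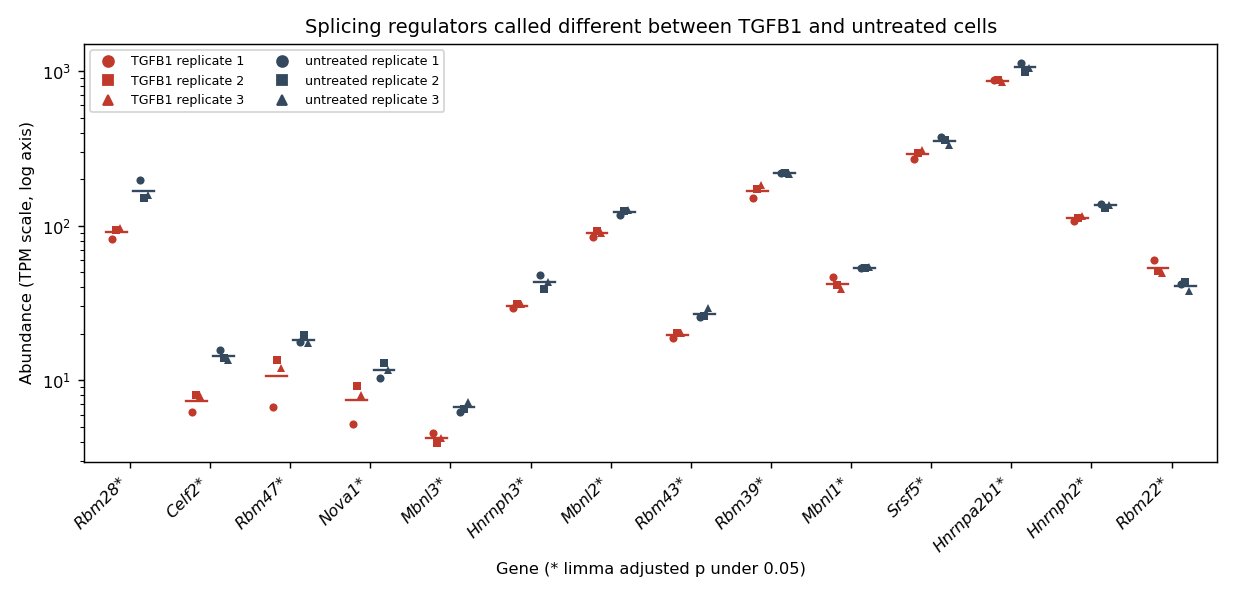
Abundance (TPM scale, log axis) of the 14 members that passed limma's adjusted p of 0.05, in each library, ordered by log2 fold change from the lowest (Rbm28) to the single higher gene (Rbm22), with TGFB1 libraries in red left of untreated libraries in dark grey and bars at the group means. In all 14 genes the groups do not overlap.

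Of the 12 genes for recognition of the branch point and 3' splice site, 0 passed limma's adjusted p of 0.05. By the same rule 15.8% of all tested genes were called higher, 14.6% lower and 30.4% in either direction. At an unadjusted limma p under 0.05, 1 of the 12 was higher and 1 lower. At that threshold 2732 of all 12257 tested genes were higher and 2495 lower. The absence of calls depended on the scaling. Sf3b3 passed as lower when libraries were scaled by median of ratios, and Sf3b4 passed as higher after rescaling. No other alternative setting called a gene of this group. In the main test the log2 fold changes of the 12 genes ran from -0.17 (Sf3b3) to 0.19 (Sf3b4). Of the 31-base sequences of Sf3b4, 51.2% occur in other genes, so its value is uncertain. U2af2, the subunit that binds the polypyrimidine tract, had 193, 167 and 172 TPM with TGFB1 and 200, 165 and 172 TPM untreated, a log2 fold change of -0.01 with a 95% confidence interval of -0.23 to 0.21. U2af1, its partner at the AG dinucleotide, had 145 ± 19.9 TPM with TGFB1 and 156 ± 21.1 TPM untreated. Shared 31-base sequences made up 21.4% of U2af2 and 25.8% of U2af1. Sf3b2 had 131 ± 0.38 TPM with TGFB1 and 133 ± 1.42 TPM untreated (log2 fold change -0.02, adjusted p 0.733).

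The other Rbm members numbered 35, of which Rbm8a2, Rbm11, Rbm31y, Rbm44 and Rbm46 had means under 1 TPM and were not tested. Of the 30 tested, 1 rose and 3 fell (13.3% called), against 30.4% of all tested genes called. Rbm28, a nucleolar protein, is on chromosome 6 (29123576 to 29165006, minus strand), and its log2 fold change was close to that of Celf2. It had 81.7, 94.0 and 96.4 TPM with TGFB1 and 198, 150 and 158 TPM untreated. The groups did not overlap, and the log2 fold change was -0.88 (SE 0.12, limma adjusted p 0.00289), which was called under every alternative setting tried. Rbm43 had 18.6, 20.3 and 20.1 TPM with TGFB1, against 25.6, 26.1 and 29.1 TPM untreated (log2 fold change -0.43, SE 0.08, adjusted p 0.00771), and was also called throughout. Rbm39, a U2af2-related splicing factor, had 150, 174 and 182 TPM with TGFB1 and 220, 218 and 216 TPM untreated. Its log2 fold change was -0.37 (SE 0.08, adjusted p 0.0136), and the call was lost without untreated replicate 3 (adjusted p 0.0514). Rbm22, a component of the catalytically active spliceosome, was the only member called higher. It had 59.6, 51.3 and 49.6 TPM with TGFB1 and 41.7, 42.9 and 38.0 TPM untreated, a log2 fold change of 0.38 (SE 0.09, adjusted p 0.0208). This call was lost without untreated replicate 1 or 3, with an adjusted p of up to 0.0789. The cold-inducible Rbm3, the most abundant of these genes, had 672 ± 56.7 TPM with TGFB1 and 638 ± 64.7 TPM untreated (adjusted p 0.579).

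Replicate 1 was the highest of 3 libraries in both groups in 34 of 89 members (38.2%), against 18.2% of all tested genes, and in 11 of 20 hnRNPs. The summed abundance of all 107 members was 11682, 11069 and 10993 TPM with TGFB1 and 12446, 11271 and 11513 TPM untreated. The group means were 11248 ± 378 TPM with TGFB1 and 11744 ± 621 TPM untreated, a difference of -4.22%, and the groups overlapped.

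**Figure D5:**
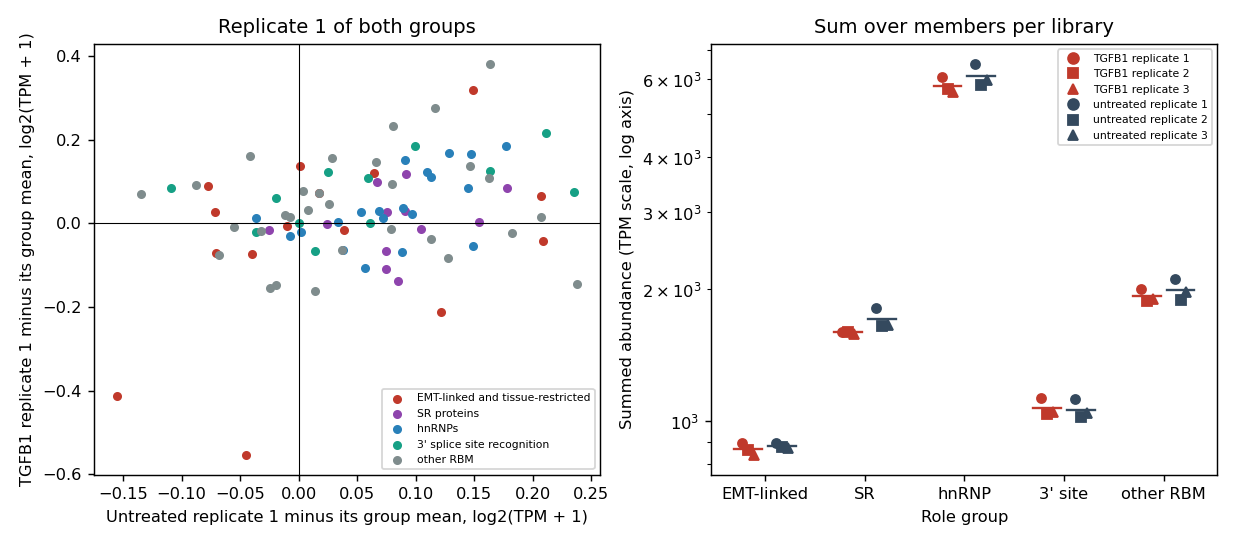
Left, deviation of replicate 1 from its group mean (log2(TPM + 1)) in untreated cells (horizontal axis) and TGFB1 cells (vertical axis), 1 point for each of the 89 tested members, coloured by role. Right, summed abundance of each role group (TPM scale, log axis) in each library, with TGFB1 libraries in red left of untreated libraries in dark grey and bars at the group means; replicate 1, the round marker, is the highest hnRNP sum in both groups.

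Other parts of the splicing machinery were read from lists that hold no member. Of all tested genes 30.4% were called, 15.8% higher and 14.6% lower. The shares called were 4% for small nuclear ribonucleoprotein and LSm genes and 11.8% for Prp and catalytic-step genes. They were 25% for SR protein kinases and 23.1% for other RNA-binding proteins. Of 25 small nuclear ribonucleoprotein and LSm genes 0 rose and 1 fell, Snrpg, a core Sm protein, with 220 ± 19.8 TPM after TGFB1 and 381 ± 17.4 TPM untreated (log2 fold change -0.79, limma adjusted p 0.00111). Of 34 genes of the Prp complexes and the catalytic steps, 1 rose and 3 fell. The helicase gene Dhx8, which releases spliced mRNA, rose by 0.30 on the log2 scale (adjusted p 0.0286), and Isy1 (log2 fold change -0.38), Prpf39 (-0.30) and Prpf38b (-0.24) fell, with adjusted p of 0.0067, 0.0294 and 0.045. The Isy1 call held under every alternative setting tried. The Prpf38b call was lost in 9, among them leaving out TGFB1 replicate 2 or 3 or any 1 of the untreated libraries. The Prpf39 call was lost in 6, among them leaving out TGFB1 replicate 2 or untreated replicate 1 or 3, and the Dhx8 call in 5, among them leaving out TGFB1 replicate 2 or 3 or untreated replicate 1 or 3. Of 8 tested SR protein kinases 0 rose and 2 fell. Clk1 had 51.0 ± 6.40 TPM with TGFB1 and 63.4 ± 2.75 TPM untreated (adjusted p 0.0467), and Srpk2 had 38.6 ± 3.12 TPM with TGFB1 and 46.3 ± 1.11 TPM untreated (adjusted p 0.0404). Both kinase calls were lost when any 1 of the untreated libraries was left out, and with no filter on low values, no intensity trend or rescaling. The Clk1 call was also lost under quantile normalization and without TGFB1 replicate 1 or 2. The Srpk2 call was also lost with equal replicate numbers paired as a block and without TGFB1 replicate 2 or 3. Of 39 other RNA-binding proteins tested, 2 rose and 7 fell. Rbmx, an hnRNP G gene, had a log2 fold change of -0.49 (adjusted p 0.0297), Luc7l, related to a yeast U1 factor, -0.48 (0.00561) and Pcbp4, a poly(C) binder, -0.43 (0.00958). The Rbmx call was lost with no filter on low values and without TGFB1 replicate 2 or 3 or untreated replicate 1 or 3. Rbms3 rose, with 16.3 ± 1.73 TPM after TGFB1 and 11.5 ± 0.40 TPM untreated (log2 fold change 0.47, adjusted p 0.0108).

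Of 23 genes whose exons are known to switch in EMT, 7 rose (30.4%) and 1 fell (4.35%) in total abundance. Of all tested genes 15.8% rose and 14.6% fell. In either direction 34.8% of these genes were called, against 30.4% of all tested genes. Isoforms cannot be read from values summed by gene. Baiap2, an adaptor of the actin cytoskeleton, had 10.6, 9.79 and 10.6 TPM with TGFB1 and 23.5, 27.2 and 23.3 TPM untreated (log2 fold change -1.18, limma adjusted p 0.000391). Cd44, the hyaluronan receptor, had 28.3, 7.60 and 6.65 TPM with TGFB1 and 2.36, 1.36 and 2.64 TPM untreated. Its log2 fold change of 2.02 (adjusted p 0.0245) was 1.40 without TGFB1 replicate 1, and the call was lost without any 1 of the untreated libraries. Fn1, fibronectin, had a log2 fold change of 0.76 (adjusted p 0.00159). Of 15 proliferation genes 1 rose, Rrm2 (log2 fold change 0.83, adjusted p 0.0245), and 1 fell, Ccnb2 (-0.41, adjusted p 0.0374). That is 13.3% called, against 30.4% of all tested genes. The Rrm2 call was lost with no filter on low values and without untreated replicate 2 or 3. The Ccnb2 call was lost in 7 alternative settings, among them rescaling, the replicate block (pairing equal numbers) and leaving out TGFB1 replicate 3 or untreated replicate 1 or 3.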

How the data were processed

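RNA abundance was measured in 3 TGFB1 and 3 untreated libraries, for which poly(A) RNA had been enriched from 250 ng of total RNA and cDNA made with strand-preserving reagents, per the labels' protocols. Software in the submitters' processing notes is sleuth 0.30.0 and kallisto 0.44.0, with the build GRCm38 and no roles. The deposited values are a TPM-scale signal per gene, corrected for length and depth by the authors. Column totals of 983434 to 1026702 show that they are not plain TPM, and no source used here gives the step behind them, the annotation or the use of strand. Counts were not used here, so depth and counting error are unknown.

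Values were fitted as log2(TPM + 1) with limma 3.58.1 in R 4.3.3 (lmFit, eBayes with trend) over the 12257 genes averaging 1 TPM or more. Tests are two-sided, with Benjamini-Hochberg adjustment over all of these, called at 0.05. Fold changes on this scale understate low genes. Since replicates may be technical, p-values cover only the spread among these 6 samples. The steps were tested on simulated data with 200 of 12257 genes changed. They recovered 13.4% of 1.25-fold, 44.8% of 1.5-fold and 78.8% of 2-fold changes, so small changes can go uncalled. In the data 3725 genes were called, so recovery may differ there. Summed abundances and paralog shares are given without a test.

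The pattern matched 117 rows, of which 6 were marked pseudogenes, and the 111 left held 107 symbols. Celf1, Hnrnpu and Srsf1 each stood on 2 rows of equal values, and U2af1l4 on a second row at 1.65 TPM. The row with the highest mean was used, which in each case carries that name in GENCODE M21. In the other lists the row whose identifier carries the symbol in GENCODE M21 was used. This mattered for Magi1: the deposited table gives that symbol also to the identifier annotated as Cnksr3, a row of higher mean that was not used. Coordinates and shared 31-base sequences are from GENCODE M21 (GRCm38), computed with Python 3.11.15, and a share of 20% or more is given as uncertain. Promoters are from RefSeq.

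Named genes are the 12 largest called changes in each direction, every tested EMT-linked gene, up to 4 called and the 3 most abundant genes of each role, and up to 4 called genes of each other list. Some of these are not reported here. Sf3b3 and Sf3b4, as the ends of a range, the untested Rbm genes, and Cdh2, Krt7, Wt1, Krt19, Lhx9, Cd68, Star, Foxl2, Inha, Cnn1, Des, Myh11, Myocd and Smad7, as markers or checks, were named after their values were seen. Members and lists were chosen with earlier results of these data known.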

Additional observations from a re-analysis of the deposited data

How the results depend on the processing

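The test was repeated under 17 alternatives. Of the 14 member calls, 6 held under all (Rbm28, Celf2, Mbnl3, Hnrnph3, Mbnl2 and Rbm43). Members called higher numbered 1, and 2 with a filter of 5 TPM, 2 with no filter on low values, 2 with a pseudocount of 5, 2 with robust eBayes, 3 with quantile normalization and 7 with rescaling. Leaving out 1 library gave 0 to 2 higher and 7 to 16 lower. Over all tested genes it gave 1113 to 2024 higher, against 1937, and 917 to 1926 lower, against 1788. The lowest counts came without untreated replicate 3, and those without untreated replicate 1 (1181 higher and 1130 lower) or 2 (1125 lower) also moved by over 1.5 times. Rescaling gave 2376 higher and 1411 lower. Some small values changed sign. With rescaling the Celf1 log2 fold change was 0.00269, the Sf3b2 log2 fold change 0.026 and the U2af2 log2 fold change 0.040, which was 0.025 with quantile normalization. With 1 library left out U2af2 ran from -0.072 to 0.072 and Hnrnpa1 from -0.030 to 0.10. The cause of these shifts was not tested. In their deviations from the group means, same-numbered replicates 1, 2 and 3 correlated at 0.20, 0.15 and -0.04 over all tested genes, 0.33, 0.35 and -0.04 over the members and 0.58, 0.43 and 0.24 over the hnRNPs. Over all tested genes untreated replicate 2 correlated better with TGFB1 replicate 3 (0.18) than with its own number, and nothing in the labels ties equal numbers together, so the block was not used in the main test. With the replicate block, 14 members were called (1 higher and 13 lower), 13 of them shared with the unblocked test. Depth, which is unknown, limits the low genes most.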
